A study of Mus musculus with 8 samples.

Results

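The cortex of mice without SHARP1 and SHARP2 was compared with that of wild type mice at ZT4, which is 4 h after light onset and falls in the rest phase of these nocturnal animals. The comparison is defined by the sample labels, but it and the gene lists used below were chosen with earlier results of these data known. It takes 4 of the 8 arrays of the study, namely 2 WT mice and 2 SHARP1/2 null mutants (S1/2-/-). The other 4 arrays hold 2 mice of each genotype at ZT16, in the dark. They enter the filter on low signals and the shared estimate of the spread. They are also used below where the same gene or the same list is looked up in other animals. All 8 mice were of the C57/bl6 strain and 4 months old by the labels, were housed in groups under a light-dark cycle, and have no treatment in the labels other than anaesthesia before cortex was taken from coronal slices. The methods describe male mice from crosses of double heterozygous parents that had been backcrossed to C57Bl/6J. The labels name no driver line or cell type for the null alleles. Because 1 array was made per mouse, p values rest on the spread between the 2 animals of a group, pooled over the groups of all 8 arrays.

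SHARP1 (also DEC2, gene *Bhlhe41*) and SHARP2 (also DEC1, gene *Bhlhe40*) are basic helix-loop-helix transcriptional repressors. They bind E-box elements such as CACGTG, through which the CLOCK and ARNTL proteins activate the *Per* and *Cry* genes of the circadian clock, and both respond to neuronal activity and to light in several tissues. Cortical tissue contains neurons, astrocytes, microglia, vessels and oligodendrocytes, the cells that wrap axons in the lipid-rich membrane called myelin. In such bulk tissue, fewer cells of a type and less RNA per cell cannot be told apart.

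The probe set for the targeted gene *Bhlhe40* (104701_at) had signals of 1074 and 983 in WT and of 913 and 834 in S1/2-/- mice at ZT4, so that RNA was still read in the mutants. The groups did not overlap, and the log2 difference was -0.24 with a standard error of 0.14 (limma, adjusted p = 0.753). No source used here says whether the probes fall inside or outside the deletion, so this signal does not check the genotype labels. *Bhlhe41* was not analysed here. As a check of the tissue, *Tbr1*, a transcription factor of deep cortical neurons, had signals of 6612 and 6551 in WT and of 8634 and 7212 in S1/2-/- mice. *Penk* and *Drd2*, which are markers of projection neurons of the striatum, were also read on every array, with *Penk* at no less than 3279 among the 4 ZT4 arrays.

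The values are MAS5 signals, 1 per probe set on a linear scale, scaled by the authors so that each array has a trimmed mean of 500. Median signals of the 4 arrays ranged from 188 to 202. On the log2 scale the WT mice correlated with each other at 0.962 and the S1/2-/- mice at 0.961, while pairs of different genotype correlated at 0.955 to 0.961. Of the 7453 probe sets that passed a filter on low signals, 11.7% differed by over 1.5-fold between the 2 WT mice and 11.2% between the 2 S1/2-/- mice. The median log2 difference, S1/2-/- minus WT, over all tested probe sets was -0.004. The number of arrays limits the precision, with a median standard error of 0.21 on the log2 scale.

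Genes of the myelin membrane led the comparison. Calling a probe set required a difference of more than 1.5-fold with an adjusted p below 0.05. By this rule 7 of 7453 probe sets (0.0939%) were called, 6 higher and 1 lower in S1/2-/- mice. The 6 that rose stand for 4 genes: *Cldn11*, which encodes the tight junction protein of central myelin, *Mobp* and *Mal*, which encode myelin-associated membrane proteins, and *Gsn*, which encodes the actin-severing protein gelsolin and is strongly expressed in oligodendrocytes.

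*Cldn11* (100044_at) gave signals of 814 and 963 in WT and of 1916 and 2004 in S1/2-/- mice. Both mutants lay above both WT animals, by 2.21-fold on average (log2 difference 1.15, standard error 0.13, adjusted p = 0.0235 from limma). The level of *Gsn* (93750_at) was 320 and 375 in WT against 793 and 819 in the mutants. This was a 2.33-fold difference (log2 1.22, standard error 0.16, adjusted p = 0.0235), and the 2 mice of each genotype lay close together. *Mal* (99089_at) rose from 1106 and 1232 to 2161 and 2129, which is 1.84-fold (log2 0.88, standard error 0.11, adjusted p = 0.0235).

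*Mobp* was measured by 4 tested probe sets, all of them higher in S1/2-/- mice without overlap. The brightest, 100536_at, gave 3651 and 3968 in WT against 6702 and 6494 in S1/2-/- mice, a 1.73-fold difference (adjusted p = 0.0235). The probe sets 99047_at and 99048_g_at were 1.79-fold and 2.27-fold higher (adjusted p = 0.032 and 0.04). The last, 99046_at, was 1.83-fold higher and missed the threshold (adjusted p = 0.0595). The probe sets of 1 gene share their transcripts and do not count as separate observations. The only probe set called lower, 93059_at, is annotated to several genes and is not named. It fell from 1995 and 1797 in WT to 1048 and 976 in S1/2-/- mice (log2 difference -0.90, adjusted p = 0.0235).

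**Figure D1:**
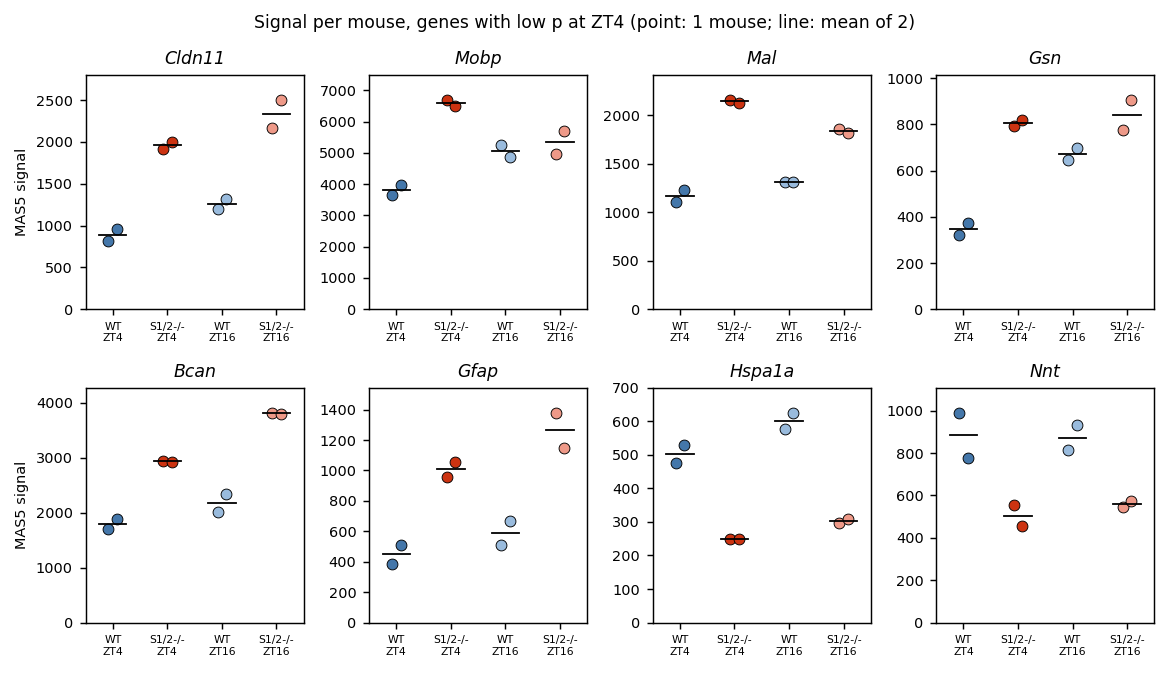
MAS5 signal (linear axis from 0) of 8 genes in each of the 8 mice, with a point per mouse and a line at the mean of the 2 mice of a group. The panel of *Cldn11* shows the S1/2-/- mice at 1916 and 2004 against 814 and 963 in WT at ZT4; *Mobp* is shown by its brightest probe set, *Gfap* by 94144_g_at, and *Hspa1a* and *Nnt* are lower in both mutants.

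These calls depended on single arrays. Without the first WT mouse at ZT4, or without either S1/2-/- mouse at ZT16, which enters through the shared estimate of the spread, no probe set was called. Without the first or the second S1/2-/- mouse at ZT4 a single other probe set was called, for *Arcn1* and *Prdx2* respectively, both lower; these are named because they were the calls left, after their values were seen. Without the second WT mouse at ZT4, 7 probe sets were called, of which 1, for *Cldn11*, was among the original 7. The sizes moved little across all alternatives: the log2 difference of *Cldn11* stayed between 1.03 and 1.27, that of *Gsn* between 1.11 and 1.33, that of *Mal* between 0.80 and 0.96 and that of *Mobp* (100536_at) between 0.73 and 0.85.

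The list of genes of oligodendrocytes and myelin had 18 measured genes, of which 16 passed the filter on low signals. At ZT4, 14 of the 16 were higher and 2 lower in S1/2-/- mice, with a median log2 difference of 0.58 (0.49 over all 18 measured genes), beside -0.004 over all tested probe sets. The 4 genes above were called. With an unadjusted p under 0.05 and a fold over 1.5, 7 of 16 were higher and none lower, where 2.08% of all tested probe sets met this in the higher direction and 1.25% in the lower. In 12 of 16 both mutants lay above both WT mice, against 19.5% of all tested probe sets, and in none of the 16 both lay below, against 19.9%.

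Among the structural proteins of compact myelin, *Mbp* (96311_at) had signals of 9828 and 10632 in WT and of 14659 and 15938 in S1/2-/- mice. The log2 difference was 0.58 (standard error 0.08) with an adjusted p of 0.032 from limma, just short of the 1.5-fold threshold. A much dimmer probe set of *Mbp*, 96310_at, gave 669 and 567 in WT against 628 and 700 in the mutants, and its groups overlapped (log2 difference 0.11).

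The adhesion proteins of the outer and inner myelin surface showed like differences that were not called. For *Mog*, signals were 419 and 517 in WT against 925 and 878 in S1/2-/- mice (log2 difference 0.95, adjusted p = 0.118). *Mag* (102405_at) stood at 796 and 1037 against 1592 and 1692 (log2 difference 0.85, adjusted p = 0.104), and its dimmer probe set 161846_r_at overlapped between the genotypes (log2 difference -0.13). *Ugt8a*, the enzyme that makes the myelin lipid galactosylceramide, gave 227 and 244 in WT against 435 and 428 in S1/2-/- mice (log2 difference 0.88).

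The transcription factors of the lineage had smaller differences. *Sox10*, needed for oligodendrocyte differentiation, gave 641 and 582 in WT against 772 and 791 in the mutants (log2 difference 0.36), and *Nkx2-2* overlapped between the genotypes at a low level (log2 difference -0.05). *Car2*, *Apod* and *Evi2a* overlapped as well. For *Cnp*, a myelin enzyme, no array at ZT4 read above 29, so that this probe set carries no information on its gene. *Ugt8a*, *Sox10*, *Nkx2-2*, *Car2*, *Apod*, *Evi2a* and *Cnp* are given here to account for the list and lie outside the rule for named genes.

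The summed signal of the 18 measured genes was 27197 and 29332 in WT against 41119 and 41246 in S1/2-/- mice at ZT4. At ZT16 it was 35757 and 35676 in WT against 38062 and 40554 in S1/2-/- mice. The 2 WT mice at ZT4 had the lowest sums of the 8 mice, and the other 6 lay between 35676 and 41246. The median log2 difference between the genotypes in the ZT16 mice was 0.22, with 10 of 16 genes higher and 6 lower. Of the 16, 4 passed the unadjusted threshold as higher at ZT16 (2.94% of all tested probe sets) and none was called there, and the difference between the times was called for none (*Mobp* 100536_at, log2 difference of -0.72 between ZT16 and ZT4, adjusted p = 0.465).

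**Figure D2:**
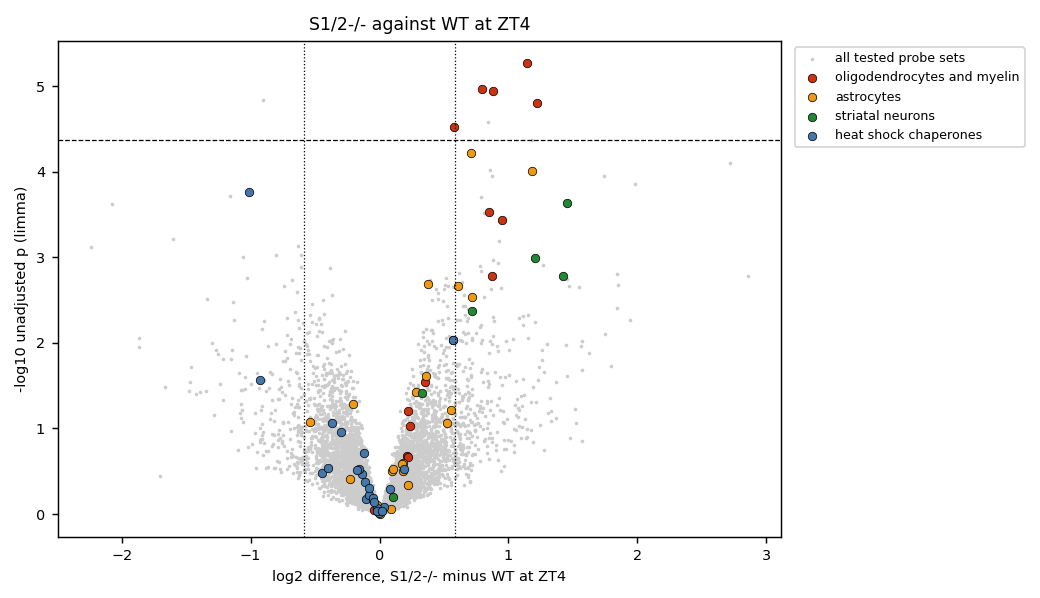
Log2 difference (S1/2-/- minus WT at ZT4, x axis) against -log10 of the unadjusted p from limma (y axis) for the 7453 tested probe sets in grey and the tested genes of 4 lists in colour. The dotted lines mark a 1.5-fold change and the dashed line the highest p with an adjusted p under 0.05; above the dashed line the coloured points all belong to the myelin list, and the grey points there are other probe sets of *Mobp* and 93059_at.

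Genes of astrocytes, which support synapses and take up glutamate, were the next group among the lowest p values, and none was called. Of 21 measured and tested astrocyte genes 17 were higher and 4 lower, with a median log2 difference of 0.18, and 4 passed the unadjusted threshold in the higher direction (2.08% of all tested probe sets). *Bcan*, which encodes the extracellular matrix proteoglycan brevican, gave 1706 and 1883 in WT against 2938 and 2930 in S1/2-/- mice (92700_at, log2 difference 0.71, standard error 0.11, adjusted p = 0.0505). A dimmer probe set, 161996_f_at, was higher by 1.26 on the log2 scale. The groups did not overlap on either.

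*Gfap*, the intermediate filament of astrocytes, gave 388 and 508 in WT against 958 and 1057 in S1/2-/- mice with 94144_g_at (log2 difference 1.18, adjusted p = 0.0595). The second probe set, 94143_at, was higher by 0.44 (adjusted p = 0.738), again without overlap, so both pointed one way and differed in size. The neurotensin receptor gene *Ntsr2* gave 1678 and 1770 against 2841 and 2427 (log2 difference 0.61, adjusted p = 0.285), and the chaperone gene *Clu* gave 7465 and 7587 against 10393 and 9218 (log2 difference 0.38, adjusted p = 0.285). Summed over the list, the signal was 91886 and 94157 in WT against 105346 and 99678 in the mutants. At ZT16 the median log2 difference of the list was 0.19, again with 17 of 21 genes higher. The summed signals overlapped there, with 95198 and 104561 in WT against 100337 and 104203 in the mutants.

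A group of genes differed in the same direction in the separate mice of ZT16. Of the 155 probe sets higher at ZT4 with an unadjusted p under 0.05 and a fold over 1.5, 63.9% had the same sign at ZT16, where 57.3% of all tested probe sets had the same sign at both times. Their median log2 difference was 0.85 at ZT4, where they were picked, and 0.22 at ZT16. Of the 93 picked as lower, 62.4% had the same sign at ZT16, and the median went from -0.84 to -0.12. At ZT16, 24 of the 155 and 7 of the 93 met the same threshold in the same direction (2.94% and 1.34% of all tested probe sets), while 6 and 3 met it in the opposite direction. Each probe set has the same standard error at both times in the fit. Probe sets picked at ZT4 therefore pass more easily at ZT16, and the shares over all probe sets are not a like baseline. The log2 differences of the times correlated across probe sets at Pearson's r = 0.158 and Spearman's rho = 0.192; probe sets are not independent replicates.

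These 31 probe sets, 28 of them with a single symbol, included *Cldn11*, *Mog*, *Bcan*, *Gfap* and *Ntsr2* on the higher side. None of the 28 lay on the chromosome that carries *Bhlhe40*. The share of all tested probe sets on that chromosome was not counted, so nothing is read from this. *Cldn11* gave 1193 and 1313 in WT against 2162 and 2505 in S1/2-/- mice at ZT16 (log2 difference 0.90, adjusted p = 0.0578), and *Bcan* gave 2011 and 2332 against 3814 and 3796 (log2 difference 0.81, adjusted p = 0.0578). *Adgrg1*, an adhesion receptor of glia and progenitors, gave 406 and 377 in WT against 655 and 599 in the mutants at ZT4 (log2 difference 0.68) and was higher by 0.97 at ZT16. None of these was called at ZT16, where 1 probe set (0.0134%) without a gene symbol was called.

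On the lower side at both times, *Hspa1a*, which encodes the stress-inducible chaperone HSP70, gave 477 and 530 in WT against 250 and 248 in S1/2-/- mice at ZT4. The log2 difference was -1.01 (standard error 0.17, adjusted p = 0.0798) and it was -0.99 at ZT16. *Nnt*, which encodes a mitochondrial enzyme that makes NADPH, gave 989 and 777 against 555 and 454 (log2 difference -0.80, adjusted p = 0.244), with -0.64 at ZT16. *Resp18*, a protein of endocrine and neuronal secretory granules, gave 2207 and 1810 against 1301 and 1095 (log2 difference -0.74) and -0.67 at ZT16. On the higher side at both times was also *H2-T18*, an MHC class Ib gene with close paralogs that may share its probes. It gave 193 and 247 in WT against 679 and 781 in the mutants at ZT4 (log2 difference 1.74, adjusted p = 0.0595), with 0.99 at ZT16.

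Genes of striatal projection neurons had the highest median of the 33 lists at ZT4. Of 7 measured genes 6 were tested, and all 6 were higher in S1/2-/- mice at ZT4, with a median log2 difference of 0.96. At ZT16, 3 were higher and 3 lower (median 0.00), and the difference between the times was called for none. None was called at ZT4, and 4 passed the unadjusted threshold as higher (2.08% of all tested probe sets). *Penk*, the precursor of the enkephalins, gave 3279 and 3601 in WT against 7651 and 11608 in S1/2-/- mice (94516_f_at, log2 difference 1.46, adjusted p = 0.0887). *Drd2*, a dopamine receptor, gave 217 and 296 against 475 and 718 (log2 difference 1.20, adjusted p = 0.244), and *Tac1*, the precursor of substance P, gave 253 and 390 against 674 and 1047 (log2 difference 1.42, adjusted p = 0.285).

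In each of these genes both mutants lay above both WT mice, and the second S1/2-/- mouse had the highest signal of the 4. *Pde1b*, a phosphodiesterase of striatal neurons, followed the same order with 2314 and 2381 against 3111 and 4806 (log2 difference 0.72, adjusted p = 0.387). Summed over the 7 measured genes, the signal was 7468 and 7915 in WT against 13389 and 19980 in the mutants at ZT4. At ZT16 it was 15183 and 19476 in WT against 11487 and 17392 in the mutants. The 2 WT mice at ZT4 thus had the lowest sums of all 8 mice for this list as for the myelin list. Without the second S1/2-/- mouse the median of the list was 0.66. The part of tissue from outside the cortex in the myelin and astrocyte differences was not tested.

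**Figure D3:**
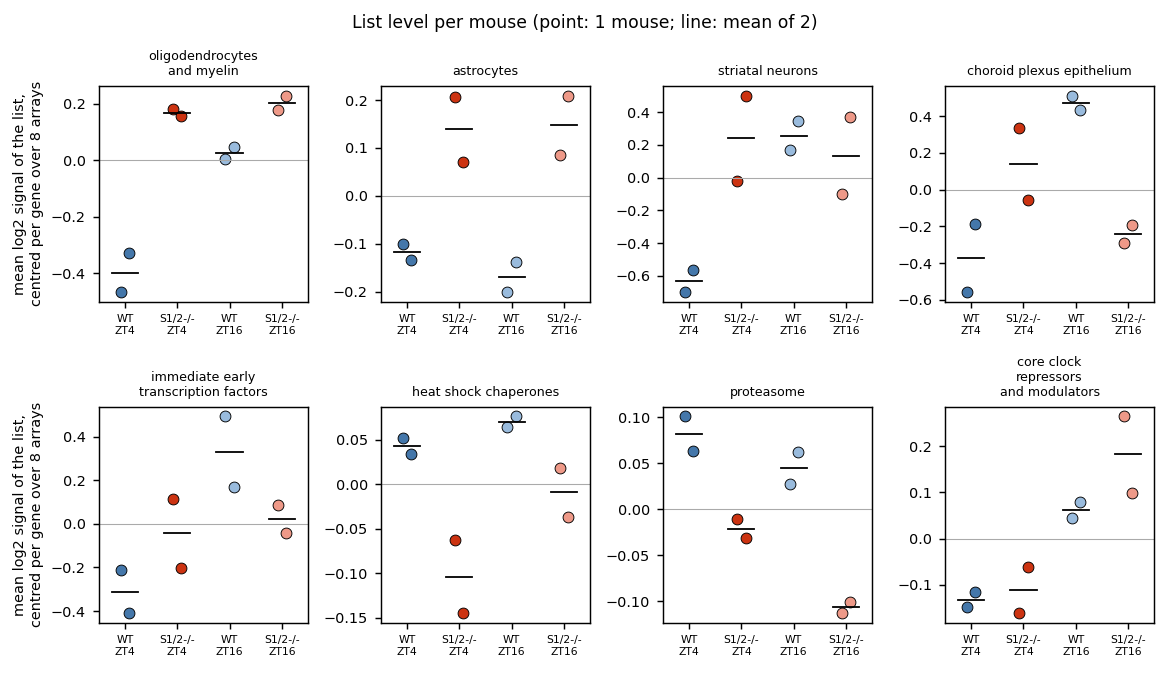
Level of 8 gene lists in each mouse, as the mean log2 signal of the tested genes after each gene was centred on its mean over the 8 arrays (y axis), with a point per mouse and a line at the group mean. For myelin and striatal genes the 2 WT mice at ZT4 lie below the other 6 mice; for astrocyte genes all 4 S1/2-/- mice lie above all 4 WT mice; and for proteasome genes all 4 lie below.

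The list of choroid plexus epithelium, the tissue that secretes cerebrospinal fluid, had 6 tested of 15 measured genes, all 6 higher in S1/2-/- mice at ZT4 with a median log2 difference of 0.40. Its defining gene *Ttr*, the carrier of thyroid hormone, gave 83.2 and 331 in WT against 1456 and 146 in the mutants. The groups overlapped, and without the first S1/2-/- mouse the difference changed sign. *Igf2*, also made by meninges, gave 1248 and 1045 against 1648 and 1593 (log2 difference 0.50, adjusted p = 0.285). All 15 measured genes of the list, with those below the filter, summed to 4110 and 4340 in WT and to 6737 and 5359 in S1/2-/- mice. At ZT16 the order was the opposite, with sums of 8071 and 7204 in WT against 4922 and 4925 in the mutants. Of the 6 tested genes 2 were higher and 4 lower there (median -0.13). *Ttr* gave 2582 and 2412 in WT against 102 and 150 in the mutants at ZT16. The log2 difference was -4.33 (adjusted p = 0.212 from limma).

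Of 13 tested microglial genes 10 were higher and 3 lower (median 0.10), and of 18 genes of endothelium and mural cells 14 were higher and 4 lower (median 0.13). None of these genes, each read by its brightest tested probe set, passed the unadjusted threshold at ZT4 in either direction. *Itm2a*, of the endothelial and mural list, gave 1019 and 1078 in WT against 1346 and 1417 in the mutants (log2 difference 0.40). Its adjusted p from limma was 0.445. *Slc2a1*, the glucose transporter of brain endothelium, had the lowest difference of that list and went against most of its genes. It gave 835 and 806 in WT against 602 and 584 in the mutants (log2 difference -0.47, adjusted p = 0.45). The 18 tested genes of cortical layer neurons were split into 11 higher and 7 lower (median 0.04), and the 19 of cortical interneurons into 15 higher and 4 lower (median 0.13). Among the layer genes *Rgs4* gave 1346 and 1350 in WT against 1648 and 1847 in the mutants (log2 difference 0.37). *Cux2*, a transcription factor of upper layers, had the highest difference of that list at a low signal. It gave 174 and 114 in WT against 220 and 287 in S1/2-/- mice (log2 difference 0.84, adjusted p = 0.585). *Id2* was lower, with 4973 and 3791 in WT against 3731 and 3300 in the mutants (log2 difference -0.31). Blood cell genes varied between mice of the same genotype: the *Hba-a1* signal was 2442 and 5701 in WT against 6204 and 3173 in the mutants.

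No gene of the circadian clock passed either threshold at ZT4. Of 11 tested repressors and modulators 6 were higher and 5 lower (median log2 difference 0.06). Of 8 activators and output genes 3 were higher and 5 lower (median -0.03). *Per1* gave 446 and 462 in WT against 423 and 527 in S1/2-/- mice, with a log2 difference of 0.06 and a standard error of 0.25. The corresponding values were -0.10 and 0.31 for *Per2*, 0.26 and 0.24 for *Per3*, 0.10 and 0.22 for *Cry1* and 0.17 and 0.27 for *Cry2*. With standard errors of this size small differences were not detectable.

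Among the activators, *Arntl* gave 702 and 599 in WT against 506 and 522 in the mutants. These did not overlap, with a log2 difference of -0.33 (standard error 0.15, adjusted p = 0.686). *Clock* was at 0.26, *Npas2* at -0.58 and *Dbp*, an output gene driven through E-boxes, at 0.33. The values of *Npas2* and *Dbp* overlapped between the genotypes. The nuclear receptor genes *Nr1d1* and *Nr1d2* stood at -0.06 and -0.23.

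Among genes induced by neuronal activity, the immediate early transcription factors had opposite medians at the 2 times. Of 14 tested genes of this class, 11 were higher and 3 lower at ZT4 (median 0.27), while 3 were higher and 11 lower at ZT16 (median -0.23). Over all 19 measured genes the median at ZT4 was 0.01. None was called at either time. The unadjusted threshold was passed by 3 as higher at ZT4 (2.08% of all tested probe sets) and by 4 as lower at ZT16 (1.34%). The effector gene *Dusp1*, which encodes a phosphatase of MAP kinases, gave 683 and 662 in WT against 1616 and 1009 in S1/2-/- mice at ZT4, and 2129 and 2141 against 1149 and 1082 at ZT16. The groups did not overlap at either time. The log2 differences were 0.93 and -0.94 (adjusted p = 0.191 and 0.212), and the difference between them, -1.86, had the lowest p of all tested probe sets for a difference between the times (adjusted p = 0.295 from limma).

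*Fos* gave 282 and 141 in WT against 476 and 264 in the mutants at ZT4, which overlapped (log2 difference 0.83, and -1.10 at ZT16). *Nr4a1*, an orphan nuclear receptor, gave 494 and 622 against 1371 and 679 (log2 difference 0.80, and -0.97 at ZT16). *Btg2*, an antiproliferative gene of the same class, gave 443 and 481 against 791 and 677 (log2 difference 0.67, adjusted p = 0.402) and was at -0.08 at ZT16. *Egr1* overlapped, with 2808 and 1248 in WT against 2374 and 2775 in the mutants. For the 14 effector genes of activity the counts were 10 higher and 4 lower at ZT4 (median 0.16) and 7 higher and 7 lower at ZT16 (median -0.03), and *Arc* was not analysed here.

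Over all tested probe sets, the difference between ZT16 and ZT4 in the effect of the genotype was called for none by limma, with 424 at an unadjusted p under 0.05 and none by the ANOVA contrast with adjusted p. The 6 with a single symbol and the lowest p were *Dusp1*, *Sugt1* (93366_r_at), *Pcp2* (102376_r_at), *Mobp* (100536_at), *Penk* and *Fahd1*. *Penk* was at 1.46 at ZT4 and at -0.44 at ZT16, where 8476 and 12383 in WT overlapped with 5828 and 9833 in S1/2-/- mice. For *Sugt1* the brighter probe set 93365_s_at showed log2 differences of 0.15 and 0.10, unlike the -0.65 and 0.68 of 93366_r_at.

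**Figure D4:**
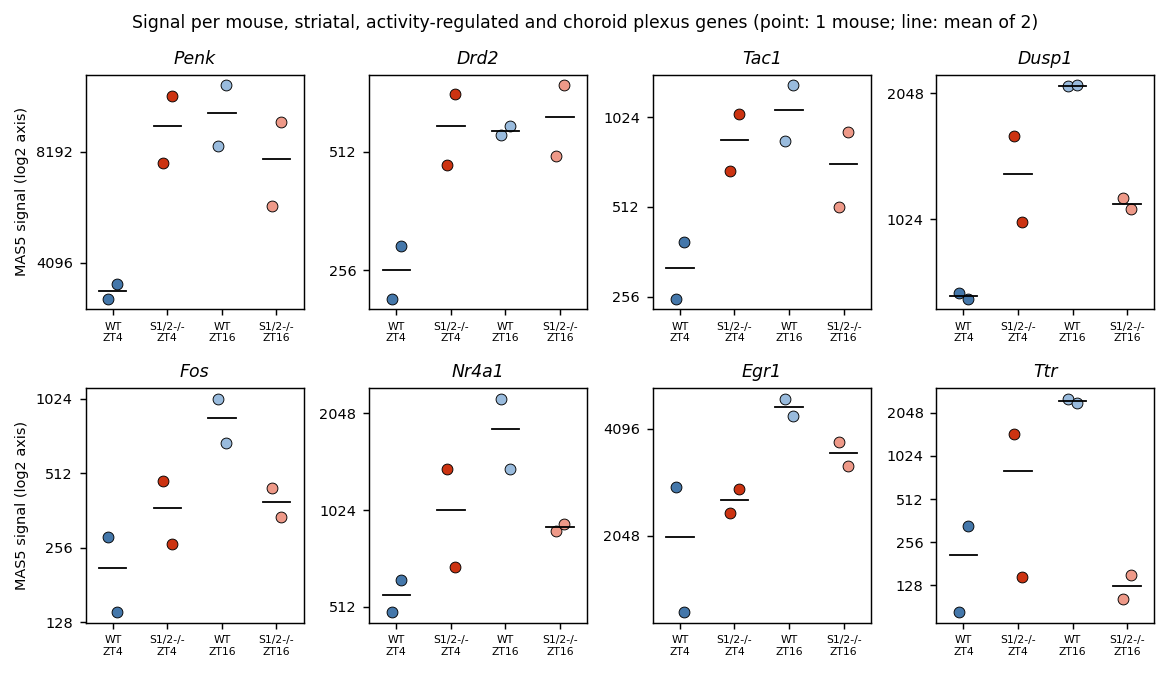
MAS5 signal (log2 axis) of 3 striatal genes (*Penk*, *Drd2*, *Tac1*), 4 activity-regulated genes (*Dusp1*, *Fos*, *Nr4a1*, *Egr1*) and the choroid plexus gene *Ttr* in each of the 8 mice, with a point per mouse and a line at the mean of the 2 mice of a group. *Dusp1* lies at 683 and 662 in WT and at 1616 and 1009 in S1/2-/- mice at ZT4, and the order of the genotypes is the opposite at ZT16.

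The sequences before the start of 4 genes are shown, because SHARP proteins act through E-boxes. The genes are 2 of the called genes, the clock gene *Per1*, and *Dusp1*. The log2 differences of *Dusp1* had opposite signs at ZT4 and ZT16, and the difference between them was not called. The sequences are the 250 bases upstream of the annotated start, 5′ to 3′ on the strand of the gene. They come from RefSeq on GRCm38.p6, with each E-box CACGTG in capitals. This motif reads the same on both strands. The windows are chr3:31149670-31149919 (plus strand) for *Cldn11*, chr2:127656696-127656945 (minus) for *Mal*, chr17:26508473-26508722 (minus) for *Dusp1* and chr11:69098699-69098948 (plus) for 1 of 2 starts of *Per1*. The start with the most CACGTG motifs was shown for a gene, so the *Per1* window was picked by its motif count.
Cldn11: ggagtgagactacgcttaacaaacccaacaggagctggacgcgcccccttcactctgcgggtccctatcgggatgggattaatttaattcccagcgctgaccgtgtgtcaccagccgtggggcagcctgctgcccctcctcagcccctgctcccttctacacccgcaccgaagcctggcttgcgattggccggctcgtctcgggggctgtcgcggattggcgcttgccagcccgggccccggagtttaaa
Mal: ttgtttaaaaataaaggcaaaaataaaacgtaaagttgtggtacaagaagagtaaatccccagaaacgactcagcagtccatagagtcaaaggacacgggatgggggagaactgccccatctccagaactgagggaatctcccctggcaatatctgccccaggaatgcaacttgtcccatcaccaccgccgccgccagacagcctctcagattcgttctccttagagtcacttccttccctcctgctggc
Dusp1: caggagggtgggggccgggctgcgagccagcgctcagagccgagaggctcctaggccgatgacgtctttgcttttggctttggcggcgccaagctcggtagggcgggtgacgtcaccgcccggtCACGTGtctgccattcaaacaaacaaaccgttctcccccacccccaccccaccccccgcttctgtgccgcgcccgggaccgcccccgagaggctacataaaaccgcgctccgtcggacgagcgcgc
Per1: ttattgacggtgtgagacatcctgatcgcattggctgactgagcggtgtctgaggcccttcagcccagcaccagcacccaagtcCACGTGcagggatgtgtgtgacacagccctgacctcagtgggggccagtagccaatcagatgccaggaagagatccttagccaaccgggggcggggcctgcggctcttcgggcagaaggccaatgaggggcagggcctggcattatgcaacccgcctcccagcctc
The motif begins 126 bases before the start of *Dusp1* and 166 bases before that of *Per1*, and it is absent from the windows of *Cldn11* and *Mal*. Over the 6 annotated starts of the 4 called genes, none held CACGTG in these 250 bases, beside 6.02% of the 32851 starts in the table. Among the called genes and those with the 24 lowest p values together, 2 of the 20 starts found for 15 genes (10%) held it, those of *Dusp1* and *Ndel1*. Of the 20 starts found for 15 of the 19 clock and activity genes set out in the rule for named genes, 5 held it, in *Cry1*, *Dusp1*, *Per1* and *Tef*. A match is a description of the letters and not of binding, and other forms of the E-box were not searched.

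Of 26 tested heat shock chaperones 21 were lower and 5 higher at ZT4 (median -0.08), beside 11 of 13 housekeeping genes lower (median -0.11). Of the 26, 2 passed the unadjusted threshold as lower (1.25% of all tested probe sets), *Hspa1a* and its near-identical neighbour *Hspa1b*. The 22 tested chaperones of the endoplasmic reticulum were 11 higher and 11 lower (median -0.02). *Hspa1b* gave 326 and 367 in WT against 170 and 195 in the mutants (log2 difference -0.93, adjusted p = 0.605). The probes of the 2 genes may read each other's transcripts. *Cryab*, a small heat shock protein that is also a gene of oligodendrocytes, went against the list, with 298 and 309 in WT against 473 and 431 in the mutants (log2 difference 0.57, and -0.51 at ZT16).

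Of 34 proteasome genes 27 were lower and 7 higher at ZT4 (median -0.10), and in 14 of 34 both mutants lay below both WT mice (19.9% of all tested probe sets). In the ZT16 mice 27 of 34 were lower again (median -0.11). Of 24 cytosolic ribosomal proteins 17 were lower (median -0.09, and -0.20 at ZT16), and of 61 genes of oxidative phosphorylation 40 were lower (median -0.02, and -0.16 at ZT16). No gene of these 3 lists was called at ZT4 or passed the unadjusted threshold there. Of 13 housekeeping genes 11 were lower at ZT4 as well (median -0.11), and at ZT16 6 of 13 were (median 0.05), so that a shift of this size at ZT4 was present in these reference genes too. *Pdk1*, which encodes a kinase that inhibits pyruvate dehydrogenase, gave 430 and 492 against 229 and 268 (log2 difference -0.89, adjusted p = 0.402).

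Of 16 subunits of glutamate and GABA receptors 13 were higher and 3 lower (median 0.21, and 0.25 at ZT16), with *Gria1*, an AMPA receptor subunit, at 864 and 806 in WT against 1434 and 1115 in S1/2-/- mice (log2 difference 0.60, adjusted p = 0.402). The kainate receptor subunit *Grik5* gave 1397 and 1404 against 1806 and 1909 (log2 difference 0.41, adjusted p = 0.327), and was at 0.72 at ZT16 (adjusted p = 0.0578). Its dimmer probe set 162074_r_at was at 0.51 at ZT4 and at -0.22 at ZT16, where the groups overlapped. The 30 voltage-gated channel genes were split nearly evenly (16 higher, 14 lower, median 0.01). Among the basic helix-loop-helix partners and inhibitors, 13 of 19 Id, Hes and E-protein genes were higher (median 0.18), with *Id4* at 445 and 453 in WT against 728 and 747 in the mutants (log2 difference 0.72, adjusted p = 0.32).

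**Figure D5:**
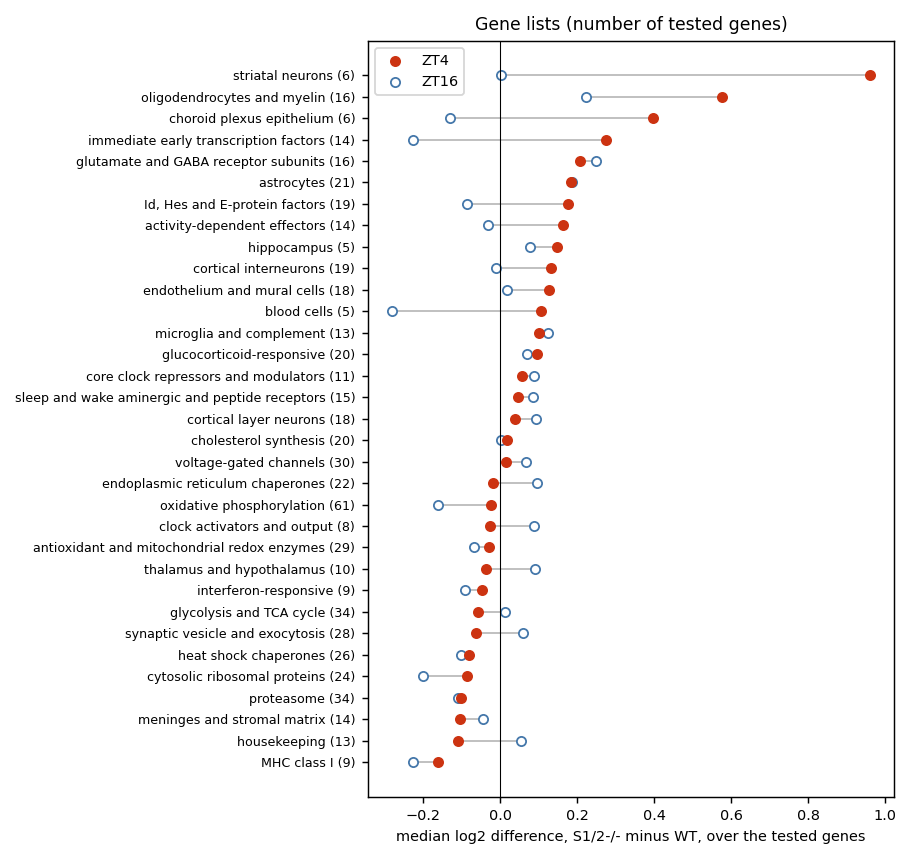
Median log2 difference, S1/2-/- minus WT, over the tested genes of 33 lists at ZT4 (filled points) and at ZT16 (open points), ordered by the ZT4 value, with the number of tested genes in parentheses. Striatal (0.96) and myelin genes (0.58) lie farthest from 0 at ZT4; most other lists lie within 0.2 of it at both times.

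Several further genes among the 24 lowest p values rested on a probe set that another probe set of the gene did not share. *Ndel1*, a partner of the motor protein dynein, was lower by 1.16 on the log2 scale with 98884_r_at, and its brighter probe set 98882_s_at gave 2736 and 2784 in WT against 2804 and 2702 in S1/2-/- mice. *Flt1*, a receptor of vascular endothelial growth factor, was at -2.24 with 98453_at and at 0.26 with 98452_at. *Usp38*, a deubiquitinase, was at -1.60 with 160605_s_at and at -0.31 with 102776_at. The laminin gene *Lamc1* was at 1.98 with 161706_f_at, with signals of no more than 93.1 in WT.

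The others had a single tested probe set each. *Aldh1a1*, a retinaldehyde dehydrogenase, gave 1266 and 1459 in WT against 2333 and 2346 in S1/2-/- mice (log2 difference 0.78, adjusted p = 0.0828; 0.56 at ZT16). Its dim probe set 161956_at lay below the filter and pointed the other way at ZT4. That probe set gave 111 and 142 in WT against 89.8 and 80.8 in the mutants (log2 difference -0.56). *Cdh13*, a cadherin anchored in the membrane by a lipid, gave 486 and 516 against 832 and 930 (log2 difference 0.81, adjusted p = 0.104; 0.51 at ZT16). *Pou2f2*, a POU transcription factor, gave 242 and 231 in WT against 52.3 and 60.2 in the mutants (log2 difference -2.08, adjusted p = 0.0887), and was at 0.18 at ZT16.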

How the data were processed

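Cortical RNA of 8 mice was hybridised to 1 Affymetrix array each. The labels give Trizol extraction and the methods RNeasy columns. The authors deposited linear signal intensities, which MAS5 had summarised per probe set, with a trimmed mean of 500 in every column. The sources used here do not give the version of MAS5. All 8 columns were used.

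After removal of 66 control probe sets, signals below 1 were set to 1 and log2 was taken. The 7453 of 12422 probe sets with a mean over the 8 arrays at or above the 40th percentile were tested. Gene names came from the annotation of the array (10833 probe sets with 1 symbol, 396 with several, 1193 with none). A listed gene is read by its brightest tested probe set, and one below the filter from a fit without it. limma 3.58.1 in R 4.3.3 fitted 4 group means to all 8 arrays with an intensity trend (4 residual and 6.02 prior degrees of freedom), and p was adjusted by Benjamini-Hochberg over the tested probe sets. The unadjusted threshold is p under 0.05 with a fold over 1.5.

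Named genes were every called probe set, the 24 lowest p at ZT4, the 10 steadiest at both times, the 6 lowest p for the difference between the times, 2 to 4 members of described lists and fixed clock and activity genes. The comparison, the 33 lists and the rules were chosen with earlier results of these data known. Steps were tested on simulated data. Alternatives were a fit of the ZT4 arrays alone, quantile normalization or median centring, no filter or one at the 60th percentile, a pseudocount of 16, limma without the trend, an ANOVA contrast without moderation, unadjusted p, a replicate block and each array left out in turn.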

Additional observations from a re-analysis of the deposited data

How the results depend on the processing

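With 2 mice per group the calls at ZT4 were not stable, while directions mostly were. The 7 called probe sets became 13 with the ZT4 arrays alone, 12 with a filter at the 60th percentile and 11 with median centring, and each of these held the original 7. They became 0 without the intensity trend, 0 with the ANOVA contrast without moderation and 248 with unadjusted p; 5 were called without a filter and 7 with quantile normalization or a pseudocount. Leaving out single arrays gave 0 to 14. The called probe sets kept their direction in every alternative run. At ZT16 the 1 call became 0 without a filter, 6 at the 60th percentile, 0 without the trend, 0 with ANOVA, 319 with unadjusted p and 0 to 156 with arrays left out, the highest without the first WT mouse at ZT16. The difference between the times had 0 calls, 298 with unadjusted p and 0 to 17 with arrays left out, the highest again without that mouse. In these fits a lone mouse is assumed to vary like the other groups.

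With the replicate number as a block (replicate block), 13 probe sets were called at ZT4, 6 of them among the 7, against 0 at ZT16 and 2, for *Tac1* and *Penk*, for the difference between the times. Samples share only a number: deviations of same-numbered mice of both genotypes at ZT4 correlated at 0.0982.

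Directions turned only for genes that were not called, each time with 1 of the ZT4 arrays left out. Over the arrays left out in turn, the log2 difference ran from -0.13 to 0.32 for *Cry1*, from -0.25 to 0.13 for *Nr1d1*, from -0.10 to 0.21 for *Per1*, from -0.46 to 0.25 for *Per2*, from -0.23 to 0.19 for *Tef* and from -1.85 to 0.69 for *Npas2*. It ran from -0.13 to 1.04 for *Egr1*, from -0.053 to 1.41 for *Hbb-b2* and from -0.18 to 3.13 for *Ttr*, lowest without the second WT, the first WT and the first S1/2-/- mouse respectively. The cause was not tested. Of the list medians under an alternative, 397 moved by less than the spread between replicates and 63 by more.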
